A study of Rattus norvegicus with 6 samples.

Results

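The growth hormone controlled cytochrome P450s of rat liver were represented by 9 genes (Cyp2c11, Cyp2c12, Cyp2c13, Cyp2c7, Cyp2c22, Cyp2a1, Cyp2a2, Cyp3a2 and Cyp3a18). They are 9 of the 13337 named genes on the array, were chosen by name, and a probe was taken where the platform annotation gave it one of these symbols. This gave 10 of the 22523 probes on the array, 2 of them for Cyp2c7. Every gene had at least 1 probe, and 9 of the 10 probes were bright enough to be tested. Each rat gave 1 Illumina bead array of total RNA from its non-tumor liver. The EGCG group was 3 male Wistar rats that drank EGCG (epigallocatechin gallate, a green tea catechin) at 0.02% on 5 days a week from week 13 to week 18, and the controls were 3 male Wistar rats that drank water. Both groups had received diethylnitrosamine (DEN), a hepatocarcinogen, at 50 mg/kg by weekly intraperitoneal injection for 18 weeks, and were killed in week 19 after a week without treatment, so that no rat without DEN is compared. The labels give no ages for the rats. The rats are named by the number in their labels, EGCG_228, EGCG_234 and EGCG_236 against water_224, water_227 and water_237.

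In the adult rat, the pituitary releases growth hormone in pulses in males and almost continuously in females. Each pulse activates the receptor, the kinase JAK2 and the transcription factor STAT5b in hepatocytes, and the pattern sets which steroid- and drug-metabolizing P450s the liver makes. Cyp2c11, a testosterone hydroxylase, is the classic P450 of the adult male liver, and Cyp2c13, Cyp2a2, Cyp3a2 and Cyp3a18 are likewise male-specific or male-predominant. Cyp2c12, which hydroxylates steroid sulfates, is the classic P450 of the adult female liver, and Cyp2c7 and Cyp2a1 are female-predominant. Cyp2c22 hydroxylates retinoic acid.

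The sequences just before the start sites of Cyp2c11, Cyp3a2 and Cyp2c12 are shown because these genes carried the main pattern across the rats. RefSeq's promoter table (build GRCr8) held 8 of the 9 genes, and the 250 bases before the transcript start used in that table were searched on both strands. RefSeq's gene span of the same build begins at that start for 4 of the 8 genes. For the other 4 the span begins farther upstream, by 29 bases for Cyp3a2, 51 for Cyp2c13, 99 for Cyp2c7 and 4911 for Cyp2c12, so that the Cyp2c12 window lies wholly within the span and is the promoter of the table's transcript only. The motifs were TTCNNNGAA (STAT factors), TGTTTAC and TGTTTGC (FOXA factors), AGGTCAAAG and CAAAGTCC (HNF4), GTTAAT (an HNF1 half-site) and TATAAA. Capitals mark the matches.
Cyp2c11, chr1:246174966-246175215, plus strand: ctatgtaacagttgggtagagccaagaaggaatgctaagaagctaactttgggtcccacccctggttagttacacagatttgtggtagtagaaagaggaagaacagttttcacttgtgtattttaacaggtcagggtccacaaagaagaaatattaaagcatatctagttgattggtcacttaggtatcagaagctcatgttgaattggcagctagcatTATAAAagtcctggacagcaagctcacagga
Cyp3a2, chr12:14343858-14344107, minus strand: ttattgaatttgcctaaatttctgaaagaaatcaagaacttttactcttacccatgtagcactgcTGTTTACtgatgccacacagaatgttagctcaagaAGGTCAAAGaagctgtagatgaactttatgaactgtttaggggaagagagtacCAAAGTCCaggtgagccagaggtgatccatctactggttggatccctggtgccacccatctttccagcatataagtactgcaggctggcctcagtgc
Cyp2c12, chr1:248677035-248677284, minus strand: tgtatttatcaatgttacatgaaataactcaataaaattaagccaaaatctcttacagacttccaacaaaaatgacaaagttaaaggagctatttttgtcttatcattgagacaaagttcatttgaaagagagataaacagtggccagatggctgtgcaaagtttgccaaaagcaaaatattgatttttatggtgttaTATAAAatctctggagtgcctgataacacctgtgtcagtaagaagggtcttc
In Cyp2c11 and Cyp2c12 the only match was TATAAA, which ends 26 and 47 bases before the start, and which 12.9% of 33469 rat promoter windows of this length hold. The Cyp3a2 window held TGTTTAC (3.21% of windows), AGGTCAAAG (0.418%) and CAAAGTCC (1.14%). TGTTTAC was also found in Cyp2c7 and Cyp2c22, AGGTCAAAG in Cyp2c7, where it shares its first base with a TATAAA, and TGTTTGC (4.16% of windows) in Cyp2c13. TATAAA was present in 6 of the 8 windows. TTCNNNGAA (7.67% of windows) and GTTAAT (6.45%) were in 0 of the 8, which says only that these letters are not in these windows.

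The arrays had non-normalized medians between 112 and 120, and 13514 probes were bright enough to be tested. EGCG_236 lay nearer to the water rats than EGCG_228 and EGCG_234 did for many of the genes described here. Results that turn on it are given with and without it. It was picked out from these same values, and leaving out the EGCG rat nearest to the water rats widens a difference of itself. Hepatocyte markers were bright in every rat: the summed linear level of 12 markers was 185914 to 216546 in EGCG rats and 198015 to 216060 in water rats. The lowest sum, 185914, was that of EGCG_236 and lay below every water rat, while EGCG_228 and EGCG_234 had 214922 and 216546. The marker means lay at or above the 96.9 percentile. Quantile normalization gives all arrays the same set of values, which limits how far a sum over the brightest probes can differ. Of the 12, Ttr and Hpd were higher and Tat was lower in every EGCG rat than in any water rat. The groups were apart for 16.5% of all named genes. The stroma list summed to 6354 to 8766 over 11 genes in EGCG rats and 14693 to 19069 in water rats. Of these 11, 4 were lower past the threshold (adjusted p under 0.05), which 0.318% of all probes were. The red cell list (6 genes, 3 lower) summed to 13172 to 25794 with EGCG and 50953 to 74163 with water. Bile duct markers summed to 2734 to 4338 with EGCG and 5370 to 6989 with water (0 of 6 past the threshold). Endothelial markers summed to 1886 to 2055 with EGCG and 2473 to 2923 with water (1 of 4 lower), and pancreas and adipose markers to 1126 to 1307 with EGCG and 1949 to 2244 with water (0 of 4). Macrophage markers (7211 to 9344 with EGCG, 8937 to 12484 with water, 0 of 7) and lymphocyte markers (513 to 555 with EGCG, 501 to 557 with water, 0 of 5) overlapped between the groups. No marker on these arrays had an intensity of 0, and the part of these cell types in the P450 values was not tested. In whole liver, fewer cells of a type and less RNA per cell cannot be told apart.

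The male-specific Cyp2c11 and Cyp3a2 had the widest differences between the groups, both higher on average with EGCG. The female-specific Cyp2c12 was lower in every EGCG rat than in any water rat after normalization, but not in the non-normalized intensities. None of the 9 tested probes passed the threshold (limma, adjusted p under 0.05 over all probes), whereas 0.488% of all probes did (0.17% higher and 0.318% lower with EGCG). Unadjusted p-values under 0.05 were found for 4 of the 9 probes (Cyp2c11, Cyp2c12, Cyp2c13 and Cyp3a2), against 10.2% of all probes. The rats of the groups did not overlap for 3 of 9 (Cyp2c11 and Cyp2c22 higher, Cyp2c12 lower), against 15.4% of all probes (7.96% higher and 7.46% lower). The median log2 difference, EGCG minus water, was 0.27 over the 9 probes and 0.0045 over all probes tested, and 7 of 9 were above 0, against 51.3% of all probes. Without EGCG_236, 2 of the 9 passed, Cyp2c11 and Cyp3a2, where 1.41% of all probes did.

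**Figure D1:**
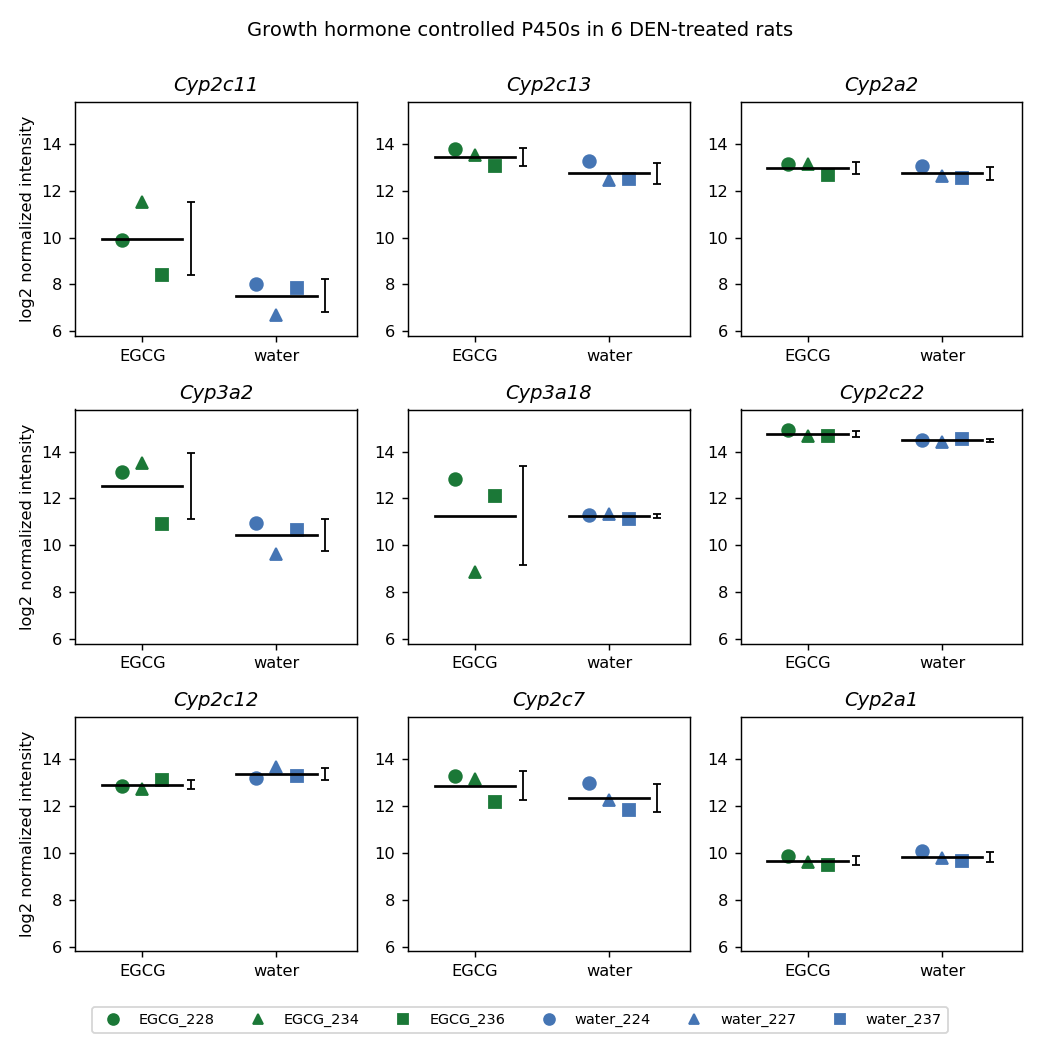
Log2 normalized intensity (vertical axes, same scale) of the 9 genes in each EGCG rat (green, left) and water rat (blue, right); horizontal bars are group means and vertical bars SD, n = 3 each. Cyp2c11 and Cyp3a2 are highest in EGCG_228 and EGCG_234, and Cyp3a18 is lowest in EGCG_234.

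Cyp2c11 had log2 normalized intensities of 9.91 in EGCG_228, 11.53 in EGCG_234 and 8.42 in EGCG_236, against 8.0 in water_224, 6.71 in water_227 and 7.83 in water_237. All 3 EGCG rats lay above all water rats, although EGCG_236 was only slightly above water_224. In non-normalized units the probe read 998, 3173 and 338 in the EGCG rats, and 332, 136 and 218 in the water rats. The array medians were 112 to 120, so that the reading in water_227 was close to the array's median. It stood at the 62.2 percentile of all probes in water_227 and at the 97.3 percentile in EGCG_234. The mean was 9.95 ± 1.55 with EGCG and 7.51 ± 0.70 in water rats (SD, n = 3 each), a difference of 2.44 on the log2 scale or 5.43-fold (SE 0.61, 95% interval 1.09 to 3.79, limma adjusted p = 0.142). Without EGCG_236 the difference was 3.21 (adjusted p = 0.0149), and without EGCG_234 it was 1.65 (adjusted p = 0.328).

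Cyp3a2, a steroid and drug hydroxylase, had log2 intensities of 13.12 in EGCG_228, 13.53 in EGCG_234 and 10.93 in EGCG_236, against 10.97, 9.65 and 10.67 in water_224, water_227 and water_237. EGCG_228 and EGCG_234 were far above the water rats, while EGCG_236 lay among them, just below water_224. EGCG rats averaged 12.53 ± 1.40 and water rats 10.43 ± 0.69 (SD, n = 3 each). They differed by 2.10 on the log2 scale or 4.28-fold (SE 0.57, 95% interval 0.85 to 3.35, limma adjusted p = 0.181). Without EGCG_236 the difference was 2.90 (adjusted p = 0.0071), and without EGCG_234 1.6 (adjusted p = 0.544).

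Cyp2c12 was bright in all of these male livers, between the 98.9 and 99.2 percentile of all probes in EGCG rats and between the 99.3 and 99.5 percentile in water rats. Its log2 intensities were 12.86 in EGCG_228, 12.75 in EGCG_234 and 13.13 in EGCG_236, against 13.20, 13.69 and 13.28 in water_224, water_227 and water_237. After normalization the groups did not overlap, with EGCG_236 nearest to the water rats. In non-normalized units the probe read 7345, 6983 and 9218 in the EGCG rats, and 11282, 14765 and 7981 in the water rats. In these units water_237 lay below EGCG_236. The mean of EGCG rats was 12.91 ± 0.20 and that of water rats 13.39 ± 0.26 (SD, n = 3 each), and they differed by -0.48 (SE 0.18, 95% interval -0.87 to -0.077, limma adjusted p = 0.378). No rat left out brought the adjusted p below 0.131. The members of the rat Cyp2c family are alike in sequence, and the array's probe sequences were not used here. A probe may therefore also read a neighbor of the gene it is named for, and this holds for the Cyp2a and Cyp3a probes too.

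Across the 6 rats, Cyp2c11 and Cyp3a2 ran together and Cyp2c12 ran opposite to both. Pearson's r between Cyp2c11 and Cyp3a2 was 0.973 (exact permutation p = 0.00278) and Spearman's rho 0.943 (exact p = 0.0167). For Cyp2c11 and Cyp2c12, r was -0.944 (exact permutation p = 0.00417) and rho -1 (exact p = 0.00278). In the normalized values, the order of the rats by one gene was exactly the reverse of their order by the other. This did not hold in the non-normalized intensities, where EGCG_236 and water_224 read above water_237 for both genes. Only the normalized values were correlated. For Cyp2c12 and Cyp3a2, r was -0.954 and rho -0.943 (exact permutation p = 0.00278 and 0.0167). These are 3 of 36 pairs of members, adjusted over which the p-values were 0.05 for each r and 0.1 to 0.109 for rho, so that none was under 0.05. Without EGCG_228 and EGCG_234, the rats farthest from the Cyp2c11 median, r was 0.964 for Cyp3a2 and -0.992 for Cyp2c12 (4 rats). The permutations ignored the groups, so that the exact p-values also take in any difference between EGCG and water rats. Taken as deviations from the group means, r was 0.934 for Cyp2c11 and Cyp3a2 and -0.857 for Cyp2c11 and Cyp2c12. Cyp2c7 and Cyp2a2, a female-predominant and a male-specific gene, also ran together (r = 0.986, exact permutation p = 0.00556, adjusted p = 0.05; rho = 0.928, exact p = 0.0222, adjusted p = 0.109), with r = 0.992 without EGCG_228 and water_237. Of the 36 pairs, 10 had an unadjusted p under 0.05 for r. Each group has too few rats for a value of its own, and all values of a rat come from 1 array and share its normalization.

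**Figure D2:**
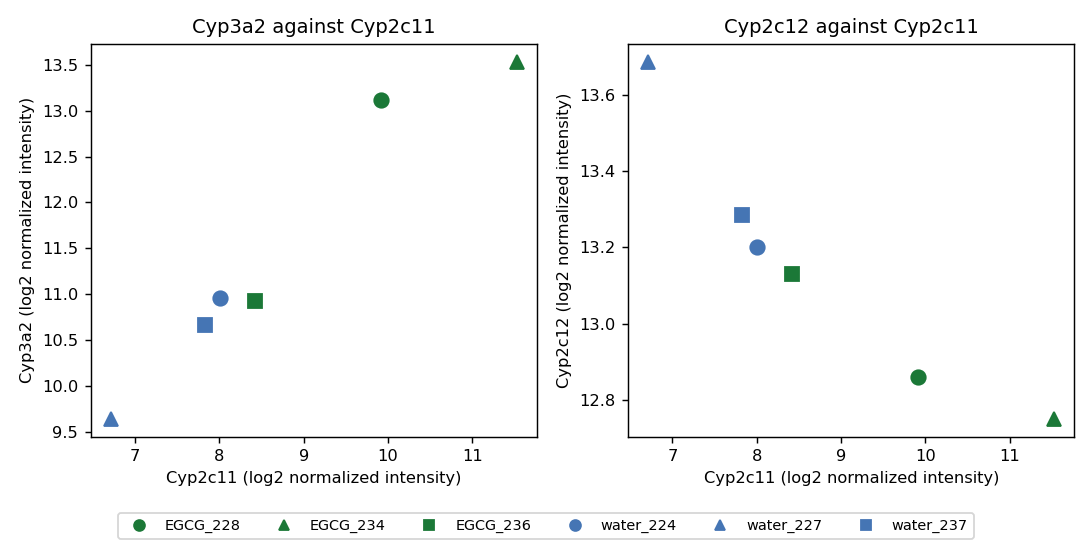
Each point is 1 rat, with the log2 normalized intensity of Cyp2c11 on the horizontal axes and of Cyp3a2 (left) or Cyp2c12 (right) on the vertical axes. Cyp3a2 climbs with Cyp2c11 (r = 0.973) and Cyp2c12 declines (r = -0.944), with EGCG_236 beside water_224 in both.

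The other male-biased genes differed less evenly. Cyp2c13, a steroid hydroxylase, read 13.79, 13.52 and 13.05 (log2) in EGCG_228, EGCG_234 and EGCG_236, against 13.28, 12.47 and 12.50 in water_224, water_227 and water_237. Only water_224 reached into the EGCG range. EGCG rats averaged 13.45 ± 0.38 and water rats 12.75 ± 0.46 (SD, n = 3 each), a difference of 0.70 (SE 0.25, limma adjusted p = 0.338). Cyp2a2, a testosterone hydroxylase, read 13.13, 13.13 and 12.66 in the EGCG rats, against 13.06, 12.61 and 12.54 in the water rats in the same order. The groups overlapped, and the difference was 0.23 (SE 0.20, 95% interval -0.20 to 0.67, limma adjusted p = 0.774).

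Cyp3a18, a male-predominant testosterone hydroxylase, showed the largest spread within a group. It read 12.81 in EGCG_228, 8.85 in EGCG_234 and 12.10 in EGCG_236, against 11.30, 11.33 and 11.13 in water_224, water_227 and water_237. EGCG_228 and EGCG_236 were above every water rat, and EGCG_234, the rat with the highest Cyp2c11 and Cyp3a2, was far below them. The non-normalized intensities of this probe were 7192, 496 and 4335 in the EGCG rats and 3075, 2858 and 1703 in the water rats. The SD was 2.11 among EGCG rats and 0.10 among water rats, and the means, 11.26 and 11.25, differed by 0.0028 (SE 0.76, 95% interval -1.66 to 1.67, limma adjusted p = 1.0). Without EGCG_234 the difference was 1.20 (adjusted p = 0.124), and without EGCG_228 it was -0.78 (adjusted p = 0.844).

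Cyp2c22 was at or above the 99.8 percentile of all probes on every array. It read 14.92, 14.67 and 14.67 in EGCG_228, EGCG_234 and EGCG_236, against 14.52, 14.41 and 14.53 in water_224, water_227 and water_237, so that the groups did not overlap. The difference was small, 0.27 (SE 0.14, 95% interval -0.050 to 0.59, limma adjusted p = 0.582).

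Of the female-predominant genes other than Cyp2c12, neither had separate groups. Cyp2c7, which like Cyp2c22 acts on retinoids, read 13.28, 13.17 and 12.19 at its bright probe in EGCG_228, EGCG_234 and EGCG_236, against 12.98, 12.25 and 11.83 in water_224, water_227 and water_237. The difference was 0.53 (SE 0.33, 95% interval -0.19 to 1.25, limma adjusted p = 0.65). Its second probe was dim, between 6.18 and 6.42 on all arrays, fell below the filter and gave a difference of -0.052 (adjusted p = 0.951 in the fit of all probes), so that it does not show the levels of the first. Cyp2a1, a testosterone hydroxylase, read 9.88, 9.62 and 9.50 with EGCG, against 10.07, 9.79 and 9.65 with water. The groups overlapped, with a difference of -0.17 (SE 0.17, 95% interval -0.55 to 0.21, limma adjusted p = 0.82).

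**Figure D3:**
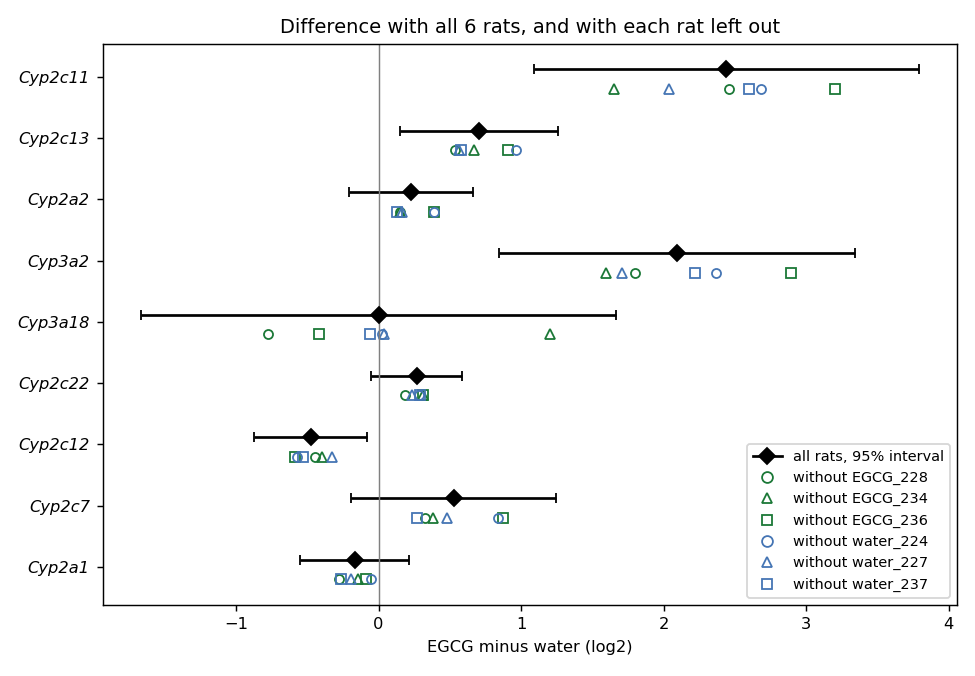
Log2 difference, EGCG minus water (horizontal axis), for each gene with all 6 rats (black diamonds, 95% interval of the limma fit, not adjusted for the number of probes) and with each rat left out (open symbols). Cyp2c11 and Cyp3a2 stay above 0 whichever rat is left out, and Cyp3a18 ranges from -0.78 to 1.20.

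The list of growth hormone pathway genes gave 1 call, to a carrier of IGF1 and not to the genes of the receptor, JAK2 or STAT5. Of 17 listed genes, 14 were tested; 1 was lower and 0 higher with EGCG past the threshold, against 0.566% of all named genes. The median difference was 0.041, against 0.0037 over all named genes. The gene that fell was Igfbp3, the main carrier of IGF1 in blood, which in rat liver is made largely outside the hepatocytes. It read 9.23, 8.68 and 9.06 in EGCG_228, EGCG_234 and EGCG_236, against 10.0, 10.12 and 9.92 in water_224, water_227 and water_237 (difference -1.02, SE 0.17, limma adjusted p = 0.0306). The call held without EGCG_236 (adjusted p = 0.0296). Each of the other rats, left out in turn, ended it, at adjusted p-values of 0.0692 to 0.153, and so did median scaling (0.109). Igfals, the acid-labile subunit of that complex and a STAT5-dependent hepatocyte gene, read 8.44, 8.65 and 7.83 with EGCG, against 7.65, 7.66 and 7.53 with water. Its groups did not overlap, and the difference was 0.70 (SE 0.19, adjusted p = 0.192). This difference was 0.94 without EGCG_236 (adjusted p = 0.0141) and 0.53 without EGCG_234 (adjusted p = 0.568). The growth hormone receptor gene Ghr differed by 0.20 (adjusted p = 0.706). Stat5b differed by 0.098 (adjusted p = 0.914), and by -0.019 without EGCG_228.

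Other genes that differ between the sexes in rat liver had a median difference of 0.94 over 7 tested of 10 listed, and 6 of the 7 were above 0, against 51.1% of all named genes. None passed the threshold. At an unadjusted p under 0.05, 5 of the 7 were higher and 0 lower, against 11.6% of all named genes in either direction. Without EGCG_236, 2 passed (Car3 and Cyp4a2). Car3, a cytosolic carbonic anhydrase that is male-predominant in rat liver, read 13.17, 13.40 and 10.57 in EGCG_228, EGCG_234 and EGCG_236, against 10.73, 8.85 and 10.20 in water_224, water_227 and water_237. As with Cyp3a2, EGCG_236 lay below water_224, and the difference was 2.45 (SE 0.66, limma adjusted p = 0.181). This difference was 3.36 without EGCG_236 (adjusted p = 0.0104) and 1.94 without EGCG_234 (adjusted p = 0.544). Cyp4a2, a fatty acid hydroxylase, read 10.07, 10.50 and 8.05 with EGCG, against 8.25, 8.17 and 8.17 with water, a difference of 1.34 (SE 0.48, adjusted p = 0.338). Without EGCG_236 it was 2.09 (adjusted p = 0.00108), and without EGCG_234 it was 0.86 (adjusted p = 0.757).

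The male-specific steroid dehydrogenase gene Hsd3b5 read 11.04, 11.26 and 10.68 in the EGCG rats, against 10.64, 9.78 and 9.75 in the water rats, without overlap (difference 0.94, limma adjusted p = 0.17; 1.23 and 0.035 without water_224). Cyp3a9, which is female-predominant, was also higher in every EGCG rat, at 8.73, 10.05 and 8.87 against 7.88, 8.71 and 8.26 in water rats (difference 0.93, adjusted p = 0.317). Obp3, which encodes a lipocalin, differed by 0.99 (adjusted p = 0.403; 0.50 without EGCG_234).

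**Figure D4:**
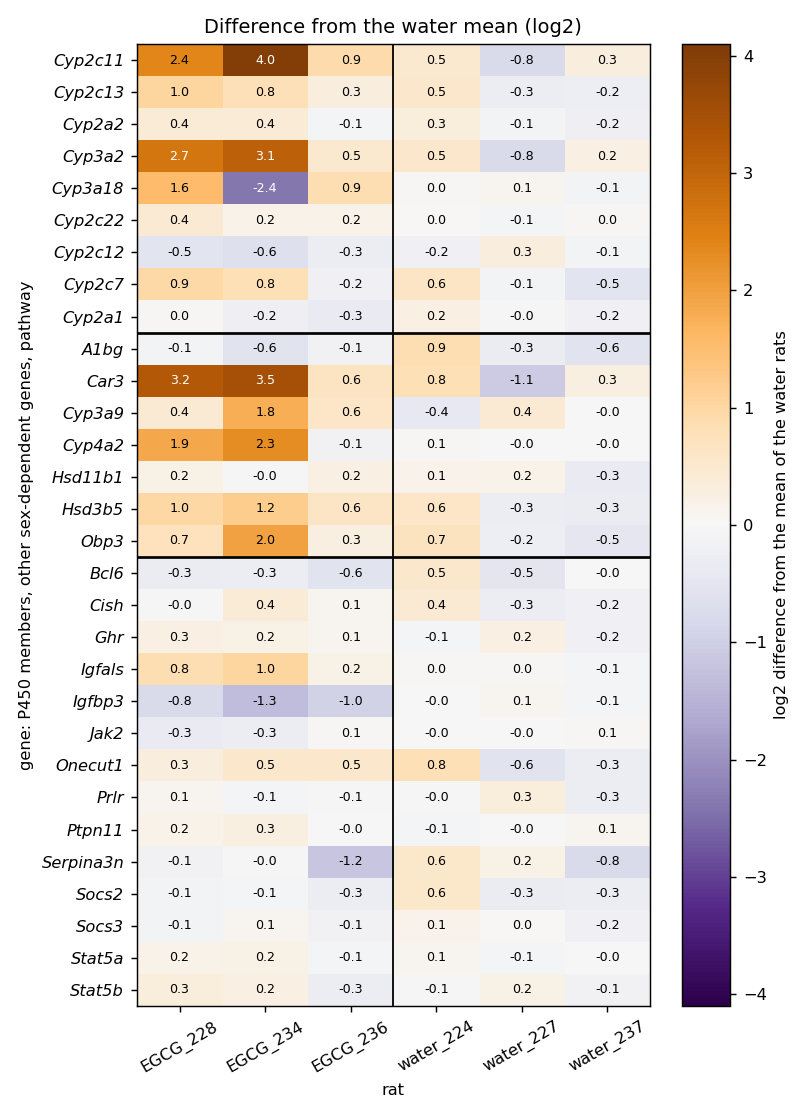
Log2 difference of each rat from the mean of the water rats (color and printed value), EGCG rats left and water rats right, for the 9 P450s (top), other sex-dependent genes (middle) and growth hormone pathway genes (bottom). Cyp2c11, Cyp3a2, Car3 and Cyp4a2 are high in EGCG_228 and EGCG_234, and EGCG_236 is within 1 of the water mean for all 4.

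Among other P450s of families 1 to 3, 21 were tested and 0 passed the threshold, with a median difference of 0.11. Over all named genes, 0.566% passed. At an unadjusted p under 0.05, 6 were higher and 1 was lower, against 11.6% of all named genes in either direction. The 1 lower gene, named after its values were seen, had the smallest p of the list. It was Cyp1b1, which oxidizes estrogens and polycyclic hydrocarbons, and it read 6.48, 6.68 and 6.90 in EGCG_228, EGCG_234 and EGCG_236, against 7.40, 7.12 and 7.43 in water_224, water_227 and water_237. Every EGCG rat was below every water rat (difference -0.63, SE 0.14, limma adjusted p = 0.0955). The largest differences were those of Cyp3a23-3a1, a steroid-inducible drug hydroxylase (1.41, SE 0.34, limma adjusted p = 0.13), and of Cyp1a2, which activates aromatic amines (1.40, SE 0.47, adjusted p = 0.284). Cyp3a23-3a1 had a dimmer probe that differed by 0.77 (adjusted p = 0.533). Cyp3a9, which is in both lists, and Cyp2e1, the ethanol- and nitrosamine-metabolizing P450 (0.67, adjusted p = 0.457), followed. Without EGCG_234, 0 of the 21 passed, where 0.118% of all probes did. Without EGCG_236, 5 of the 21 passed, where 1.41% of all probes did. These were Cyp3a23-3a1 (1.87, adjusted p = 0.0071), Cyp1a2 (2.05, adjusted p = 0.0133), Cyp2e1 (1.05, adjusted p = 0.0177), Cyp1b1 (-0.74, adjusted p = 0.0405) and, also named after its values were seen, the drug hydroxylase gene Cyp2d2 (0.83, adjusted p = 0.0266). Cyp3a23-3a1 read 11.72, 11.43 and 10.21 in EGCG_228, EGCG_234 and EGCG_236, against 9.71, 9.32 and 10.08 in water_224, water_227 and water_237, so that EGCG_236 was again the lowest of its group. The same held for Cyp1a2 (9.67, 10.72 and 8.24 with EGCG, against 8.02, 8.44 and 7.96 with water) and Cyp2e1 (14.57, 14.46 and 13.36 with EGCG, against 13.58, 13.64 and 13.17 with water).

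Of the genes that serve P450s with electrons and heme, 6 of 8 listed were tested and 1 fell, where 0.566% of all named genes passed. This was Hmox1, the enzyme that degrades heme (-1.65, SE 0.24, limma adjusted p = 0.0197). It read 9.14, 9.03 and 8.82 in EGCG_228, EGCG_234 and EGCG_236, against 11.12, 10.76 and 10.07 in water_224, water_227 and water_237. Leaving out water_227, EGCG_234 or EGCG_228 ended its call, with an adjusted p between 0.0635 and 0.083. Por, the reductase that supplies electrons to microsomal P450s, differed by 0.25 (adjusted p = 0.684).

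The genes whose pattern over the 6 rats was most like that of Cyp2c11 were Nrep (r = 0.988), Egf (0.985) and Pnp (0.984), among 9193 named genes. For Cyp3a2 they were Car3 (r = 0.997), Kcnh1 (0.996) and Hao2 (0.994), and for Cyp2c12 they were Slc35b1 (0.99), Tmx1 (0.984) and Prdx6 (0.973). They are the highest of all named genes over 6 points and are given as a description, with no test. Of these 9 genes, none passed the threshold between EGCG and water rats (limma adjusted p from 0.181 to 0.832). The Kcnh1 probe was dim, with a mean below the 60th percentile of probe means. It differed by only 0.080, against 2.10 for Cyp3a2. Without EGCG_236, Car3, Nrep (1.02, adjusted p = 0.0326) and Hao2 (1.29, adjusted p = 0.02) passed. Without EGCG_234, Nrep differed by 0.55 (adjusted p = 0.565) and Hao2 by 0.71 (adjusted p = 0.617).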

How the data were processed

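Per the labels, total RNA was extracted with TRIzol from frozen liver, and rats were grouped by the drink in their labels. The authors deposited linear bead intensities of 22523 probes (lowest 53.4), neither background-subtracted nor normalized as the values show, and a second table of intensities normalized by a method not given in the sources used here (medians 115 to 116). Neither carries detection p-values, so that no probe is called absent, and no batch information was used.

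The non-normalized intensities were corrected with limma's normexp (offset 50, which compresses differences of dim probes), then quantile normalized, and log2 was taken. Probes with a mean below the 40th percentile (log2 6.39) were not tested. Of 10 member probes, 9 were tested. Differences are EGCG minus water, fitted with limma (lmFit, two-sided eBayes with the prior variance following intensity) to the 6 arrays and Benjamini-Hochberg adjusted over 13514 probes, with a threshold of 0.05 (R 4.3.3, limma 3.58.1). Values are log2 normalized intensity unless said otherwise, and summed marker levels are on the linear normalized scale. The platform annotation gave 1 symbol for 13793 probes, several for 0 and none for 8730, and a gene outside the 9 is represented by its brightest probe. With 3 rats a group, exact permutation p-values of a difference between the groups reach no lower than 0.1. The labels number the rats separately, which is taken to mean separate animals.

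The members, gene lists, named genes and motifs were chosen with earlier results of these data known. Named were all members, listed pathway genes with the smallest p or past the threshold and those central to the signal, the 4 other P450s of largest difference (Cyp1b1 and Cyp2d2 were added after their values were seen), and the 3 genes most like Cyp2c11, Cyp2c12 and Cyp3a2. The fit was tested on simulated data. Alternatives covered background correction, normalization, the authors' table, the filter, the variance model, array weights and each rat left out.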

Additional observations from a re-analysis of the deposited data

How the results depend on the processing

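Of 9 member probes, 0 passed in the fit reported, 2 passed with array weights (Cyp2c11, adjusted p = 0.0302, and Cyp3a2, 0.0253), and 0 to 2 passed with 1 rat left out, 2 of them only without EGCG_236. Array weights also gave calls to Igfals (0.0404), Car3 (0.0264), Cyp3a23-3a1 (0.0179), Cyp1b1 (0.0374), Nrep (0.0458) and Hao2 (0.0404), which otherwise passed only without EGCG_236. In the other 10 alternatives that kept all rats, 0 member probes passed. The count over all probes, 66 in the fit reported, was 42 without an intensity trend, 172 with array weights and 0 without moderated variances (1164 at an unadjusted p under 0.05), and 12 to 190 with 1 rat left out. All members but Cyp3a18 kept their direction under all 17 alternatives, with the log2 difference of Cyp2c11 from 1.65 to 3.21, of Cyp3a2 from 1.6 to 2.90 and of Cyp2c12 from -0.58 to -0.33. The sign of Cyp3a18 turned with a background offset of 16 (-0.020), with array weights (-0.088) and without EGCG_228 (-0.78), EGCG_236 (-0.42) or water_237 (-0.056), and that of Stat5b without EGCG_228 (-0.019). With a robust trend, the adjusted p was 0.519 for Cyp2c11 and 0.536 for Cyp3a2. Igfbp3 and Hmox1 lost their calls without moderated variances (adjusted p = 0.422 and 0.433). Without EGCG_234 the Cyp3a18 difference was 1.20, and without EGCG_236 that of Stat5b was 0.29. The causes were not tested. No paired analysis was possible because the groups share no replicate numbers. The number of arrays limits the precision.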

Other observations

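Of 17 listed transcription factors that act on P450 genes, 14 were tested and 0 passed the threshold (limma), with a median log2 difference of 0.15, EGCG minus water. At an unadjusted p under 0.05, 2 of the 14 were higher and 0 lower, a share close to the 11.6% of all named genes that reached it in either direction, so that nothing is read from the count. These were the forkhead factors Foxa2, which read 9.19, 9.74 and 9.05 in EGCG_228, EGCG_234 and EGCG_236, against 8.93, 8.15 and 8.15 in water_224, water_227 and water_237 (difference 0.92, SE 0.24, limma adjusted p = 0.165), and Foxa1 (0.38, SE 0.12, adjusted p = 0.253). For both, every EGCG rat was above every water rat, and the groups were apart for 16.5% of all named genes. Foxa2 passed without water_224 (1.18, adjusted p = 0.0453). A second probe of Foxa2 was below the filter, with a difference of 0.16.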
